A study of Mus musculus with 9 samples.

Results

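Immediate early genes are transcribed within minutes of a stimulus from factors that are already present in the cell, and their mRNAs are short-lived. The NR4A genes Nr4a1, Nr4a2 and Nr4a3 encode orphan nuclear receptors that act without a classical ligand and are known in melanocytes as targets of the melanocortin receptor and cAMP. Fos, Fosb, Fosl1, Jun and Junb encode subunits of AP-1, a dimeric factor downstream of MAP kinases, and Egr1 and Egr3 encode zinc finger factors switched on by serum response factor and its ternary complex partners. These 10 genes, of 22396 in the count table, were named as a list and matched by symbol. They were selected on their CPM, a library's counts scaled to a total of 1e6, in the same groups that are compared here, so their values are a description and carry no test. Of the 10, 9 passed the filter on low counts and Fosl1 did not, as against 12744 of all genes.

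The study used B16F10, a mouse melanoma line on a C57BL/6 background, to ask which RNAs the sensor RIG-I holds when OSGEP, the catalytic subunit of the KEOPS complex that makes the t6A modification of tRNAs, is depleted. All cells stably expressed FLAG-tagged RIG-I and carried a lentiviral shRNA, either a control (shCtr) or one of a pair against Osgep (shOSGEP#1 and shOSGEP#2). RNA that came down with an anti-FLAG antibody was sequenced in 9 libraries, 3 per group, which a figure legend of the paper describes as independent experiments. All values below are therefore relative to RNA that came down with RIG-I, input RNA was not analysed here, and a change in the amount of an mRNA in the cell cannot be told apart from a change in its recovery. Likewise, in such bulk material, fewer cells with an mRNA and less of it per cell cannot be told apart.

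Total counts were 40333037, 47750758 and 41805753 in shCtr, 34551436, 50224299 and 30697653 in shOSGEP#1, and 25460689, 568995 and 14914731 in shOSGEP#2. The library with 568995 counts, shOSGEP#2 replicate 2, stood apart. It had counts for 4196 genes against 11733 to 13958 in the other libraries, and 3 counts in it, the limit that a count of 0 allows, amount to a CPM of 5.27 against 0.0597 to 0.201 elsewhere. Its values are therefore given on their own, group means and fold changes use the other 8 libraries, and shOSGEP#2 rests on n = 2. Limits and intervals cover counting error only. In shOSGEP#1 replicate 3, mitochondrially encoded genes took 2.96% of counts against 0.147% to 0.445% in the other 7 of these libraries.

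The targeted gene was lower in both depleted groups. Osgep stood at 19.1, 19.9 and 15.5 CPM in shCtr, at 3.76, 1.15 and 1.53 in shOSGEP#1, and at 0.0786 and 2.88 in shOSGEP#2 replicates 1 and 3. No shOSGEP library reached the lowest control. The log2 fold change was −3.10 (SE 0.73, adjusted p = 0.0128) for shOSGEP#1 and −3.84 (SE 0.93, adjusted p = 0.0150) for shOSGEP#2, both short of the threshold of 0.01 on the adjusted p of edgeR's quasi-likelihood test over all genes. The former was −3.77 without shOSGEP#1 replicate 1. Of the fits that leave out a library, it passed only without shOSGEP#2 replicate 1 or 3. The latter was −2.78 without shOSGEP#2 replicate 1 and −7.86 without replicate 3. Ddx58, which encodes RIG-I, stood at 180, 184 and 278 CPM in shCtr, 232, 216 and 327 in shOSGEP#1 and 402 and 429 in shOSGEP#2, with log2 fold changes of 0.26 (adjusted p = 0.427) and 0.86 (adjusted p = 0.0239). At the threshold of 0.01 the second passed only by DESeq2 (0.88), with no filter on low counts (0.86) and without shCtr replicate 3 (1.10). It was 0.29 with all 9 libraries. All cells also carried the FLAG-RIG-I construct, and its share of the Ddx58 counts was not determined.

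Markers of the labelled cell type were abundant. The 8 melanocyte markers summed to between 2791 and 8630 CPM in the 8 libraries, with Tyrp1 the most abundant and none at 0. The sum was 6545, 6198 and 8630 in shCtr, 6486, 7751 and 6996 in shOSGEP#1, and 2791 and 3488 in shOSGEP#2. Tyr fell in both depleted groups, with a log2 fold change of −2.59 (SE 0.32, adjusted p = 0.000560) in shOSGEP#1 and −3.83 (SE 0.41, adjusted p = 0.000213) in shOSGEP#2, and Dct, Pmel, Mlana and Sox10 passed, lower, in shOSGEP#2 and not in shOSGEP#1. Markers of leukocytes summed to at most 5.50 CPM, those of endothelium to at most 2.18 and those of keratinocytes to at most 0.116, with Krt5 and Krt10 at 0 in all 8 libraries. The 5 fibroblast markers summed to 4.26, 6.03 and 6.27 CPM in shCtr, 4.08, 3.54 and 5.83 in shOSGEP#1, and 16.4 and 33.8 in shOSGEP#2, with Col1a2 the most abundant and Lum at 0 in all 8. The part of these shifts in the values below was not tested.

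Nr4a3 differed most from the controls. It stood at 42.8, 48.8 and 139 CPM in shCtr, at 9.64, 8.64 and 8.11 in shOSGEP#1, and at 11.4 and 9.19 in shOSGEP#2. All 5 libraries from depleted cells lay below the lowest control, and those of shOSGEP#1 and shOSGEP#2 overlapped each other. The group means were 77.0 ± 54.1 (SD, n = 3), 8.80 ± 0.775 (SD, n = 3) and 10.3 ± 1.59 (SD, n = 2), so the spread was far wider in the controls than in either depleted group. The control mean was 8.75 times that of shOSGEP#1 and 7.47 times that of shOSGEP#2, and the log2 fold changes were −3.15 (SE 0.41) and −2.99 (SE 0.48). shCtr replicate 3 alone set the control mean high: without it the log2 fold changes were −2.39 (SE 0.21) and −2.23 (SE 0.24). The same library also had the highest Mitf, at 784 CPM against 297 and 357 in the other controls. Between the depleted groups, the log2 fold change of shOSGEP#2 to shOSGEP#1 was 0.16 (SE 0.44), which became −0.05 without shOSGEP#2 replicate 1, 0.33 without shOSGEP#2 replicate 3, −0.30 with all 9 libraries and −0.70 with the replicate block added.

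Nr4a1 had the highest mean of the NR4A mRNAs per kilobase in each group, within the spread of Nr4a3 in shCtr. It stood at 49.2, 47.2 and 61.8 CPM in shCtr, at 61.6, 66.9 and 66.4 in shOSGEP#1, and at 35.2 and 36.4 in shOSGEP#2. The shOSGEP#2 libraries lay below every other library, while shOSGEP#1 replicate 1 fell just under the highest control. Means were 52.7 ± 7.90 (SD, n = 3), 64.9 ± 2.89 (SD, n = 3) and 35.8 ± 0.859 (SD, n = 2). The log2 fold change was 0.29 (SE 0.15) for shOSGEP#1, −0.65 (SE 0.17) for shOSGEP#2 and −0.94 (SE 0.18) between them. With all 9 libraries the value for shOSGEP#2 was −1.18, and −1.52 with the replicate block added.

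Nr4a2, known for its part in dopaminergic neurons, had the opposite order. It stood at 7.14, 6.22 and 9.57 CPM in shCtr, at 6.31, 4.70 and 6.22 in shOSGEP#1, and at 14.2 and 16.7 in shOSGEP#2. Both shOSGEP#2 libraries were above all the others, and the shOSGEP#1 and control libraries overlapped. The log2 fold change was −0.43 (SE 0.26) for shOSGEP#1, 0.92 (SE 0.29) for shOSGEP#2 and 1.35 (SE 0.29) between them. With all 9 libraries the value for shOSGEP#2 was 0.46, and 0.11 with the replicate block added.

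Together the 3 receptors summed to a mean ± SD of 137 ± 63.5 CPM for the 3 control libraries, 79.5 ± 1.68 for the 3 of shOSGEP#1 and 61.6 ± 1.02 for the 2 of shOSGEP#2. Nr4a3 made up 52.4% ± 12.2 of the NR4A counts in shCtr, 11.1% ± 1.22 in shOSGEP#1 and 16.8% ± 2.86 in shOSGEP#2. Nr4a1 made up 41.7% ± 10.9, 81.7% ± 2.02 and 58.1% ± 0.429. Nr4a2 made up 5.94% ± 1.34, 7.23% ± 1.21 and 25.1% ± 2.43. In the controls Nr4a3 and Nr4a1 thus shared most of these counts, and in both depleted groups Nr4a1 held the larger part.

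**Figure D1:**
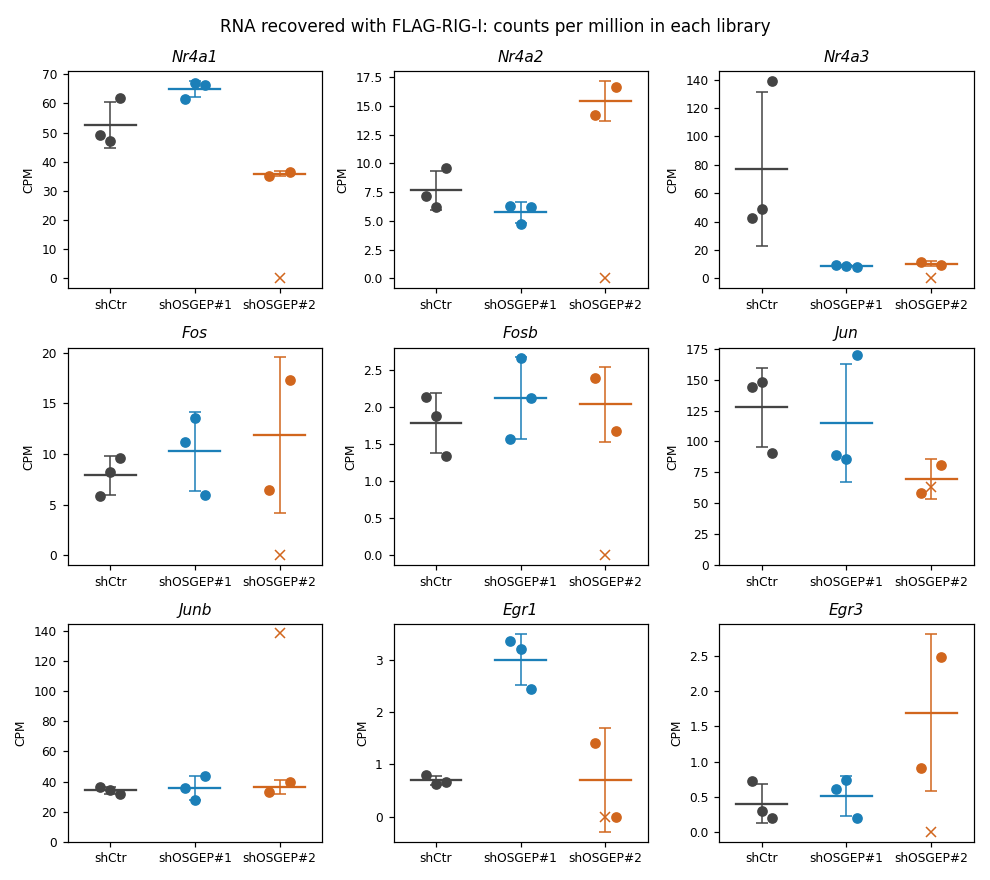
CPM (vertical axes, linear) of 9 of the genes in each library of shCtr, shOSGEP#1 and shOSGEP#2. Circles are libraries, horizontal lines group means and bars the SD over the 8 libraries used; the cross is shOSGEP#2 replicate 2, which is outside the mean. Nr4a3 lies between 42.8 and 139 in shCtr and between 8.11 and 11.4 in the 5 other libraries used.

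Among the AP-1 subunits, Jun, the transactivating partner in most AP-1 dimers, was the most abundant. It stood at 144, 148 and 90.7 CPM in shCtr, at 88.6, 85.6 and 170 in shOSGEP#1, and at 58.1 and 80.9 in shOSGEP#2. The shOSGEP#2 libraries were below all the others, whereas shOSGEP#1 spanned the range of the controls, its highest value coming from replicate 3, the library with the raised mitochondrial share. The log2 fold change was −0.16 (SE 0.28) for shOSGEP#1 and −0.98 (SE 0.32) for shOSGEP#2. The former was −0.56 without shOSGEP#1 replicate 3, 0.01 without replicate 2 and −0.00 without replicate 1.

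Junb, which can replace Jun in AP-1 and often restrains it, was level across groups. It stood at 36.4, 34.7 and 31.6 CPM in shCtr, at 35.7, 27.5 and 44.0 in shOSGEP#1, and at 33.1 and 39.9 in shOSGEP#2. The groups overlapped throughout, and the log2 fold changes were 0.05 (SE 0.19) and −0.01 (SE 0.21).

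Fos, the partner of Jun that cannot pair with itself, was scattered within groups. It stood at 5.83, 8.23 and 9.57 CPM in shCtr, at 11.2, 13.6 and 5.96 in shOSGEP#1, and at 6.44 and 17.3 in shOSGEP#2. The 3 groups overlapped, with log2 fold changes of 0.37 (SE 0.39) and 0.47 (SE 0.44). Leaving out shOSGEP#2 replicate 3, which has the highest value, turned the second to −0.36, and leaving out replicate 1 made it 1.00. Fosb ran from 1.34 to 2.67 CPM over the 8 libraries, with overlapping groups and log2 fold changes of 0.24 (SE 0.51) and 0.11 (SE 0.57), the second −0.22 without shOSGEP#2 replicate 1. Fosl1, the FRA-1 gene, had 3 counts in shCtr replicate 1 and none in the other 8 libraries, so no fold change is given.

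The EGR genes were low. Egr1 stood at 0.793, 0.628 and 0.670 CPM in shCtr, at 3.36, 3.21 and 2.44 in shOSGEP#1, and at 1.41 and 0 in shOSGEP#2. All 3 shOSGEP#1 libraries were above every other library, and the shOSGEP#2 libraries lay on either side of the controls. The 0 in shOSGEP#2 replicate 3 allows a CPM of up to 0.201. The log2 fold change was 2.09 (SE 0.90) for shOSGEP#1 and 0.02 (SE 0.99) for shOSGEP#2. The first was past the threshold in 3 of 18 alternatives and not otherwise. These were only the 2 groups compared (2.08, SE 0.39), without shOSGEP#2 replicate 1 (2.09, SE 0.43) and without shOSGEP#2 replicate 3 (2.09, SE 0.41). Nothing is read from this, since these genes were chosen by their values. The value for shOSGEP#2 was −7.72 without shOSGEP#2 replicate 1 and 0.95 without replicate 3. The former rests on a single library with 0 counts, so it is no exact fold. Egr3 stood at 0.719, 0.293 and 0.191 CPM in shCtr, at 0.608, 0.737 and 0.195 in shOSGEP#1, and at 0.903 and 2.48 in shOSGEP#2. Its shOSGEP#2 libraries were above the rest, with a log2 fold change of 1.96 (SE 1.00), and the other groups overlapped, with 0.36 (SE 0.91). The first was 1.11 without shOSGEP#2 replicate 3 and 2.68 without shCtr replicate 1, and the second 1.06 without shCtr replicate 1 and −0.00 without shOSGEP#1 replicate 2.

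**Figure D2:**
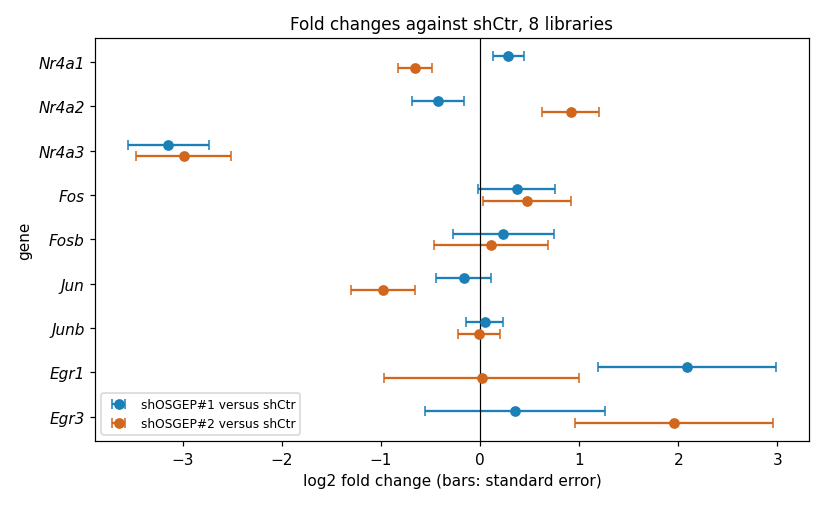
Log2 fold change (horizontal axis) of the 9 genes that passed the filter on low counts, in shOSGEP#1 and in shOSGEP#2 against shCtr, from the fit of 8 libraries; bars are standard errors. Nr4a3 lies at −3.15 and −2.99, and Nr4a1 and Nr4a2 lie on opposite sides of 0 for the 2 shRNAs.

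Levels of different genes were compared per kilobase of transcript. In shCtr, Jun was highest at 40.02 ± 10.1 CPM per kb, followed by Nr4a1 at 20.7 ± 3.09, Junb at 18.9 ± 1.36 and Nr4a3 at 13.5 ± 9.46 (SD, n = 3). Of these neighbours, Nr4a1, Junb and Nr4a3 did not differ beyond their spread. Fos at 3.74 ± 0.899 and Nr4a2 at 2.14 ± 0.485 came next, above Fosb at 0.472 ± 0.107, Egr1 at 0.155 ± 0.0192 and Egr3 at 0.102 ± 0.0710. In shOSGEP#1 the highest were Jun at 36.0 ± 15.0, Nr4a1 at 25.4 ± 1.13 and Junb at 19.8 ± 4.55, which did not differ beyond their spread, and Nr4a3, at 1.54 ± 0.135, came after Fos at 4.86 ± 1.85 and within the spread of Nr4a2 at 1.61 ± 0.254. In shOSGEP#2 (n = 2), Jun at 21.8 ± 5.04 and Junb at 20.2 ± 2.67 did not differ beyond their spread, Nr4a1 followed at 14.0 ± 0.337, and Nr4a3, at 1.80 ± 0.277, was below Nr4a2 at 4.33 ± 0.491.

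In shOSGEP#2 replicate 2, 2 of the 10 genes had counts. Of all genes in the fit for which the other libraries of the group would give over 3 counts there, 6039 of 10159 (59.4%) had 0. Junb had 79 counts, a CPM of 139 (95% Wilson interval 111 to 173), above every other library. Jun had 36 counts, a CPM of 63.3 (45.7 to 87.6), between the other libraries of its group. Nr4a1 had none where the mean of those libraries would give 20.4 counts, Nr4a2 none where 8.79 would be given, Fos none for 6.75 and Nr4a3 none for 5.86. Ddx58 likewise had none for 236, so zeros in this library also occurred for mRNAs far above its limit of detection. With this library in the fit, the log2 fold changes of Nr4a3 were −3.15 (SE 0.96) and −3.45 (SE 0.98), and that of Junb for shOSGEP#2 was 0.57.

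Over all genes, 1232 of 12744 (9.67%) passed the threshold in shOSGEP#1 against shCtr, 637 higher (5.00%) and 595 lower (4.67%). Of the 9 genes of the list in the fit, 1 passed, Nr4a3, which was lower. In shOSGEP#2 against shCtr, 1217 (9.55%) passed, 721 higher (5.66%) and 496 lower (3.89%), and again 1 of the 9, Nr4a3. Between the shRNAs, 1375 (10.8%) passed, 794 higher (6.23%) and 581 lower (4.56%) in shOSGEP#2, with 2 of the 9, Nr4a2 higher and Nr4a1 lower. With all 9 libraries 0 genes passed in edgeR in each comparison, with 620, 1240 and 1325 at an unadjusted p under 0.05, and DESeq2 was run on the 8 libraries only. In shOSGEP#1 the number was 427, 318 and 763 without shCtr replicates 1, 2 and 3, and 429 and 724 without shOSGEP#1 replicates 2 and 3. In shOSGEP#2 it was 584, 518 and 766 without shCtr replicates 1, 2 and 3, and 631 without shOSGEP#2 replicate 3, where Nr4a3 did not pass (−2.82). Between the shRNAs it was 821 without shOSGEP#1 replicate 2 and 743 without shOSGEP#2 replicate 3. There Nr4a2 passed in 8 of 19 alternatives, and of those that leave out a library only without shCtr replicate 3, with values from 1.22 to 1.43; its value was 0.89 with all 9 libraries and 0.54 with the replicate block added. Nr4a1 passed in 13, and not without shOSGEP#1 replicate 2 (−0.92), shOSGEP#2 replicate 1 (−0.95) or shOSGEP#2 replicate 3 (−0.93), and its value was −1.46 with all 9 libraries and −1.85 with the replicate block added. Because the 10 genes were chosen by their values in these groups, nothing is read from these counts. The median log2 fold change of the 9 was 0.24, 0.02 and −0.05 in the 3 comparisons, beside 0.00, −0.06 and −0.04 over all genes. Both comparisons with shCtr share the control libraries.

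Promoters of the NR4A genes are known for binding CREB, the factor activated by cAMP. RefSeq promoter windows (GRCm38.p6) are described for 7 of the 10 genes, and their 250 bases before the start were searched on both strands. Fosl1, Egr1 and Egr3 are not among the 7. Egr1 was set aside, so its absence says nothing of its motifs. The core of the cAMP response element, TGACG or its reverse complement CGTCA, occurred 4 times in each NR4A window, and 45 of 32851 windows (0.137%) hold as many, while 17.8% hold at least 1. Fos had 2, Fosb and Junb 1 each and Jun 0. The full element TGACGTCA (1.55% of windows), which contains the core, the AP-1 element TGACTCA or TGAGTCA (4.46%) and the CArG box bound by serum response factor (1.47%) were in none of the 7. Bases further from the start were not searched, so elements there would be missed. A match is a description of letters and says nothing of binding. The 3 NR4A windows are given because these genes share the count of cores while their values differed, 5′ to 3′ on the strand of the gene with the cores in capitals, at chr15:101266596-101266845 (plus strand), chr2:57124004-57124253 (minus strand) and chr4:48045055-48045304 (plus strand).
Nr4a1: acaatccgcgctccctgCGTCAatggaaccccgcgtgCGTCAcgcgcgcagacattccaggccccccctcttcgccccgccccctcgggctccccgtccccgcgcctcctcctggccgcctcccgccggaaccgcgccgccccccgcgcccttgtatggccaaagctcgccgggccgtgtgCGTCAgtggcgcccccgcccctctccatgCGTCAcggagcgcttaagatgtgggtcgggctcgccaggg
Nr4a2: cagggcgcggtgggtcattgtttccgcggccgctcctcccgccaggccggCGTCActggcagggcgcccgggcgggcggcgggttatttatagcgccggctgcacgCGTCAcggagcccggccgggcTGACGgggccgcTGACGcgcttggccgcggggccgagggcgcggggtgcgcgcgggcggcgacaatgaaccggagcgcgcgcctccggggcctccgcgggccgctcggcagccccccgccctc
Nr4a3: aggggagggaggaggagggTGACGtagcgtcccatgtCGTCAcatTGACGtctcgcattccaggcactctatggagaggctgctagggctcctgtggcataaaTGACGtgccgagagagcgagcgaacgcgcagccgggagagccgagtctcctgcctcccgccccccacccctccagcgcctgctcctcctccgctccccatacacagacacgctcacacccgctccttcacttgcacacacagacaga

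The mRNAs themselves were described from GENCODE M21 transcripts (GRCm38), taking the transcript with the longest coding sequence. ANN codons, those read by tRNAs that carry t6A, made up 19.3% of the codons of Nr4a1, with 7.66% of genes in the fit lower, 25.3% of Nr4a2 and 24.4% of Nr4a3, against a median of 26.9%. The other genes lay between 20.4% in Fosb and 28.3% in Egr1. The pentamer ATTTA, the unit of AU-rich elements that shorten the life of many immediate early mRNAs, occurred at 5.52 per kb of 3′ UTR in Nr4a1, 4.91 in Fos, 4.12 in Junb, 3.24 in Jun, 2.26 in Nr4a2 and 1.62 in Nr4a3, against a median of 1.18. Fosb, at 0.466, was below that median.

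Other genes of the pathway were taken from 7 lists, and their adjusted p-values are from the edgeR fit of 8 libraries. All these calls were lost with all 9 libraries, and many when a single library was left out. The lists hold 110 genes in the fit. Over all genes, 9.67% passed in shOSGEP#1, 9.55% in shOSGEP#2 and 10.8% between the shRNAs (5.00%, 5.66% and 6.23% higher). The counts below stand beside these shares, and whether a list differed from them was not tested. In shOSGEP#1 against shCtr 13 genes of the lists passed, but 6 without shCtr replicate 1, without shCtr replicate 2 or without shOSGEP#1 replicate 2. In shOSGEP#2 11 passed, but 6, 5 and 6 without shCtr replicates 1, 2 and 3, 7 without shOSGEP#1 replicate 2 and 6 without shOSGEP#2 replicate 3. Between the shRNAs 19 passed, but 12 without shOSGEP#1 replicate 2 and 11 without shOSGEP#2 replicate 3. Of the genes named below, those that passed whichever of the 8 libraries was left out were Akap12, Hmga2, Mapk3, Mc1r, Nras and Prkar2a in shOSGEP#1, Bag3, Mc1r and Vegfa in shOSGEP#2, and Akap12, Bag3, Ier5, Maf, Nfil3, Nras, Prkar2a and Vegfa between the shRNAs. This covers 17 of the 19 calls between the shRNAs, without those of Jund and Klf10. Of the 17 other immediate early genes in the fit, 2 passed in shOSGEP#1 against shCtr, both lower, with a median log2 fold change of −0.19 over the list, and 2 passed in shOSGEP#2, both higher, with a median of 0.64. Jund fell by 0.84 (SE 0.18, adjusted p = 0.00727) and Ier3 by 0.74 (SE 0.17, adjusted p = 0.00942) in shOSGEP#1. The antiproliferative gene Btg2 rose by 1.30 (SE 0.21, adjusted p = 0.00188) and the bZIP repressor Nfil3 by 1.18 (SE 0.24, adjusted p = 0.00615) in shOSGEP#2. Between the shRNAs 6 of the 17 passed, each higher in shOSGEP#2, as were 6.23% of all genes. The 6 included Ier5 at 2.27 (SE 0.35, adjusted p = 0.00120) and Nfil3 at 1.62 (SE 0.24, adjusted p = 0.000926). Ier5 was 1.31 without shOSGEP#2 replicate 3 and 2.84 without replicate 1. Klf6, Myc and Fosl2 passed in none of the 3 comparisons.

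Of 27 kinases and factors upstream, 2 rose and 4 fell in shOSGEP#1 against shCtr (median −0.38) and 1 passed in shOSGEP#2, which rose (median −0.08). The GTPase gene Nras fell by 1.42 (SE 0.18, adjusted p = 0.000691) and the kinase gene Mapk3 by 1.01 (SE 0.14, adjusted p = 0.00104) in shOSGEP#1, with Rps6ka1 also lower and Elk3 and Rps6ka3 higher. Rps6ka5 rose by 1.06 (SE 0.22, adjusted p = 0.00737) in shOSGEP#2, and Ep300 and Map2k2 passed in no comparison. Between the shRNAs 2 were higher in shOSGEP#2, Nras and Map2k1, and 1 lower, Elk3.

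Of 16 genes of the melanocortin and cAMP pathway, 2 rose and 2 fell in shOSGEP#1 (median −0.03) and 1 rose and 1 fell in shOSGEP#2 (median 0.07). Mc1r, the melanocortin receptor, stood at 202, 187 and 253 CPM in shCtr, at 97.0, 105 and 59.6 in shOSGEP#1 and at 47.8 and 49.1 in shOSGEP#2. It was lower in all 5 libraries of depleted cells, with a log2 fold change of −1.31 for shOSGEP#1 (SE 0.21, adjusted p = 0.00197) and −2.24 for shOSGEP#2 (SE 0.25, adjusted p = 0.000261). Akap12, a scaffold of protein kinase A, rose by 2.34 (SE 0.16, adjusted p = 5.53e-05) in shOSGEP#1, with Adcy3 also higher and the regulatory subunit Prkar2a lower, and Pde4b rose by 1.28 (SE 0.28, adjusted p = 0.00841) in shOSGEP#2, with 0.74 without shOSGEP#2 replicate 1. Between the shRNAs 1 was higher in shOSGEP#2, Prkar2a, and 2 lower, Akap12 and Adcy6, while Gnas, Prkar1a and Prkacb passed in no comparison.

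Of 12 partners and co-repressors, 0 passed in shOSGEP#1 in edgeR (median −0.21, with 5 at an unadjusted p under 0.05 and 2 by DESeq2). In shOSGEP#2 (median −0.02) 1 rose, Nfe2l1, by 1.32 (SE 0.27, adjusted p = 0.00660). Its value was 0.87 without shOSGEP#2 replicate 1, and it did not pass without shCtr replicate 2 or 3. Between the shRNAs Nfe2l1 and Maf were higher and Rxrb lower in shOSGEP#2, and Rxra, Mafg and Atf7 did not pass. Of 10 textbook AP-1 targets, 1 rose in shOSGEP#1 (median 0.25), Hmga2, and 2 rose and 1 fell in shOSGEP#2 (median 0.38). These were Vegfa, up by 1.51 (SE 0.22, adjusted p = 0.00106), Plaur, up by 1.45 (SE 0.32, adjusted p = 0.00876), and Spp1, at −3.73 (SE 0.73, adjusted p = 0.00480; −2.87 without shOSGEP#2 replicate 1 and −5.46 without replicate 3), while Ccnd1, Hmga1 and Cd44 did not pass. Between the shRNAs Vegfa and Plaur were higher and Hmga2 lower in shOSGEP#2. None of 19 AU-rich element decay factors passed in edgeR in any of the 3 comparisons, with medians of 0.15, −0.19 and −0.35 and with Khsrp, Cnot1 and Cnot6 the most abundant. Unadjusted p-values under 0.05 were found for 2, 7 and 10 of them, and DESeq2 passed 0, 0 and 3. Of 10 genes sensitive to handling and heat shock, 0 passed in shOSGEP#1 in edgeR (median −0.46; 4 at an unadjusted p under 0.05, 2 by DESeq2) and 2 fell in shOSGEP#2 (median −0.61), Bag3 by 2.27 (SE 0.24, adjusted p = 0.000206) and Hsph1 by 1.52 (SE 0.22, adjusted p = 0.000952). Bag3 was also lower in shOSGEP#2 than in shOSGEP#1, and Hspa8, Hsp90aa1 and Hspd1 did not pass.

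The genes whose log2 CPM over the 8 libraries ran most nearly with the median of the centred values of the 9 were Nucb1 (Pearson r = 0.972), Map2k7 (0.972), Ly6g5c (0.948), 4933430I17Rik (0.929) and Rpn1 (0.911), of 11309 genes ranked. That median ranged from −0.16 to 0.13 on the log2 scale.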

How the data were processed

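The authors trimmed reads with Trim Galore, aligned them with STAR to GRCm39 and quantified genes with Salmon. The deposited values are raw counts for each gene, in whole numbers. Groups and replicate numbers came from the sample labels. Identifiers were matched to symbols for 22237 of 22396 genes. CPM is a gene's counts divided by the library's total, times 1e6. edgeR 4.0.16 in R 4.3.3 (TMM, filterByExpr, quasi-likelihood test, 1 coefficient per group, Benjamini-Hochberg adjustment, threshold 0.01) was fitted to 8 libraries, without shOSGEP#2 replicate 2, and tested on simulated data. Transcript lengths and codons came from GENCODE M21. Alternatives were all 9 libraries, a replicate block, DESeq2 1.42.0, other normalizations, filters, thresholds and prior counts, the 2 groups compared alone, and each library left out. Replicate pairs differed by more than sampling noise. The members and lists were chosen with earlier results of these data known. Named were all members, Osgep and Ddx58; of each list up to 4 genes past the threshold per direction and comparison with the largest change and up to 3 that did not pass with the highest mean CPM; and the 5 genes most like the members' median, at a mean CPM of at least 1, with 0.5 added before the log2. List genes with opposite signs and a difference past the threshold, and immediate early genes of shOSGEP#2 replicate 2, were named besides. Some genes that this rule names are not reported here.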

Additional observations from a re-analysis of the deposited data

Results flagged for a closer look

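Nr4a1 and Nr4a2 had log2 fold changes of opposite sign with the shRNAs, 0.29 and −0.65 for Nr4a1 and −0.43 and 0.92 for Nr4a2, in shOSGEP#1 and shOSGEP#2. With all 9 libraries those for shOSGEP#2 were −1.18 and 0.46, and with the replicate block added −1.52 and 0.11. In the 8 libraries used, those of shOSGEP#1 lay on one side of the control mean and those of shOSGEP#2 on the other. The library outside the comparisons, shOSGEP#2 replicate 2, had 0 counts of both, which for Nr4a2 is below the control mean of 7.64. However, 59.4% of genes in the fit expected to give over 3 counts there had 0, so these zeros are not read as levels. None of these 4 values passed the threshold in edgeR, and shOSGEP#1 overlapped the controls for both genes. Between the shRNAs the values were −0.94 and 1.35, past the threshold. With a replicate block in the 8 libraries Nr4a2 did not pass (1.21, SE 0.29). Nothing is read from these calls, since these genes were chosen by their values.

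Of 110 genes of the lists in the fit, 13 (11.8%) had log2 fold changes of opposite sign against shCtr and passed the test of the difference between the shRNAs in edgeR, as did 965 of all 12744 genes (7.57%). Of these 13, 7 passed against shCtr with 1 shRNA and 6 with neither. The log2 fold change of shOSGEP#2 to shOSGEP#1 was −1.49 for Elk3 (adjusted p = 0.00104), 1.18 for Ier3 (0.00114), 0.85 for Jund (0.00989), 2.11 for Nras (0.000118) and 1.82 for Prkar2a (0.000133), which did not pass in shOSGEP#2 against shCtr (−0.52, 0.43, 0.01, 0.68 and 0.28, with adjusted p-values of 0.113, 0.115, 0.971, 0.0326 and 0.281); for Jund the value of 0.01 (SE 0.20) has no clear sign. It was 1.59 for Nfe2l1 (0.00207) and 1.62 for Nfil3 (0.000926), which did not pass in shOSGEP#1 (−0.27 and −0.44, with 0.478 and 0.182). It was −1.01 for Adcy6 (0.00289), 2.27 for Ier5 (0.00120), 1.05 for Klf10 (0.00937), 1.26 for Maf (0.000721), 0.80 for Map2k1 (0.00294) and −0.82 for Rxrb (0.00858), which passed against shCtr with neither shRNA.

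In shOSGEP#2 replicate 2, which is outside the comparisons, 8 immediate early genes had a CPM whose Wilson interval lay above the highest control library. These were Junb at 139, Fosl2 at 127, Jund at 3352, Myc at 341, Klf2 at 116, Ier2 at 297, Ier5 at 302 and Csrnp1 at 84.4. They made up 26.7% of 30 immediate early genes, of which Fosl1, Egr4, Arc and Npas4 were not in the fit. Of all genes in the fit, 2183 of 12744 (17.1%) met the same criterion. Of the 21 immediate early genes for which the other libraries of the group would give over 3 counts, 11 (52.4%) had 0, as against 59.4% of all such genes in the fit.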

How the results depend on the processing

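With all 9 libraries, 0 genes passed in edgeR in each of the 3 comparisons (shOSGEP#1 against shCtr, shOSGEP#2 against shCtr, and between the shRNAs, in this order throughout), with 620, 1240 and 1325 at an unadjusted p under 0.05, so 0 members and 0 list genes passed. The common dispersion was 0.420 against 0.0692 with 8 libraries, and DESeq2 was run on the 8 only. The members' median log2 fold change was then −0.15 for shOSGEP#2 and −0.31 between the shRNAs, against 0.02 and −0.05, and that of all genes −0.37 and −0.35, against −0.06 and −0.04.

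Deviations of libraries with the same replicate number correlated at r from −0.003 to 0.180, and those with different numbers at −0.180 to 0.144. With 2 libraries in shOSGEP#2, the deviations of one mirror those of the other. These values do not settle whether the numbers pair the libraries. With a replicate block in the 8 libraries, 1380, 1238 and 1393 genes passed, and the members' median was −0.10 for shOSGEP#2. Between the shRNAs 1 member passed, Nr4a1, against 2, as Nr4a2 did not. With the replicate block and all 9 libraries, 0 genes passed (407, 787 and 842 at an unadjusted p under 0.05), with 0 members, 0 list genes and medians of −0.20 for shOSGEP#2 and −0.67 between the shRNAs, beside −0.61 and −0.59 over all genes. In this fit Ddx58 changed sign to −0.19 for shOSGEP#2 and −0.43 between the shRNAs.

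DESeq2 passed 2419, 2405 and 2592 genes, 29, 26 and 34 list genes and, for shOSGEP#2, 2 members. A threshold of 0.05 passed 2797, 2674 and 2952 genes, 37, 28 and 42 list genes and, for shOSGEP#2, 3 members. With only the 2 groups compared, 2 members passed for shOSGEP#1, 7 list genes for shOSGEP#2, and 737 genes and 0 members between the shRNAs. At least 10 counts in every library moved the members' median to 0.0568 for shOSGEP#1, and library totals only moved it to 0.0297 between the shRNAs. With library totals only, 70.6% of calls for shOSGEP#2 against shCtr were higher, against 59.2%.

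Leaving out each library in turn gave 318 to 1458, 518 to 1471 and 743 to 1504 genes, 6 to 17, 5 to 16 and 11 to 21 list genes, 1 to 2, 0 to 1 and 0 to 2 members, and members' medians of 0.0257 to 0.236, −0.219 to 0.117 and −0.159 to 0.0762. Where this leaves shOSGEP#2 with 1 library, it is assumed to vary like the other groups. Nr4a3 in shOSGEP#2 no longer passed without shOSGEP#2 replicate 3 (log2 fold change −2.82), and kept its sign against shCtr in all 19 alternatives. The cause of these changes was not tested, beyond the smaller number of libraries. For members' single fold changes, 471 of 507 values moved by less than the spread between replicates. The 507 include the alternative that changed only the threshold, where fold changes are those of the main fit and cannot move. The spread between replicates replaced the standard error as the yardstick after first results had been seen. This count is therefore a description and no measure of robustness. For single list genes, Osgep and Ddx58, which were followed in the alternatives after seeing the data, 670 of 889 kept direction and side of the threshold and 203 no longer passed. Between the shRNAs, the log2 fold change of Osgep for shOSGEP#2 versus shOSGEP#1 was −4.75 without shOSGEP#2 replicate 3 and changed sign to 0.32 without shOSGEP#2 replicate 1.

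The 2 usable shOSGEP#2 libraries and the single shallow one limit every statement on that shRNA. Fold changes against shCtr rest on few counts for Egr1 (28 to 32 in the controls) and Egr3 (8 to 29).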
